A study of Homo sapiens with 18 samples.

Results

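The genes described here encode the histones, the proteins around which nuclear DNA is wound. They were taken from the probe annotation as the transcript clusters whose gene symbols all belong to the H1, H2A, H2B, H3, H4 or macroH2A families. This gave 86 transcript clusters, the probe sets that each array summarises as 1 value, among 33297 on the array and 21214 with a gene symbol. The 86 clusters carry 83 gene symbols. Of these clusters, 68 belong to the replication-dependent core histones (symbols H2AC, H2BC, H3C and H4C, here "clustered core"), 6 to the linker histones encoded in the same gene clusters (H1-1 to H1-6, "cluster-borne H1") and 12 to histone variants and other histone genes. The classes follow the symbols alone, so the clustered core also holds H4C16 on chromosome 12 and the pseudogene H2BC19P. The clustered core comprises 16 clusters for H2A, 19 for H2B, 13 for H3, 17 for H4 and 3 that list genes of more than 1 family.

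RNA was measured on 18 Affymetrix Human Gene 1.0 ST arrays in HEK293 cells, a human embryonic kidney line, to see which transcripts differ when RHOXF1 or RHOXF2 is introduced. The groups were cells transfected with a RHOXF1 vector for 48 h, with a RHOXF2 vector for 48 h and with a control vector for 48 h, and the same with RHOXF1, RHOXF2 and control vector for 24 h, with 3 arrays in each of the 6 groups. All groups were transfected with Lipofectamine 2000 and OriGene plasmids; pCMV6-AC-GFP is named in the treatment text, and no source used here states a GFP tag on the RHOXF1 or RHOXF2 plasmid. RHOXF1 and RHOXF2 are homeobox transcription factor genes of the X chromosome known from reproductive tissue, and both are expressed here from plasmids in a kidney-derived line, so the cells are a model of forced expression and not of the germ line. The arrays of a group are called biological triplicates, with no statement that they came from separate cultures, so p-values measure the spread between these samples.

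Replication-dependent histone genes lie in clusters, carry no introns and are transcribed mainly in S phase, when new DNA must be packaged. Their mRNAs end in a conserved stem-loop bound by SLBP rather than in a poly(A) tail, and they are degraded when replication stops. Variant histones such as H2A.Z, H3.3 and macroH2A come from single genes with polyadenylated mRNAs, are made outside S phase as well and replace the standard histones at particular sites in chromatin.

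Of the 83 histone genes, 74 have promoter windows in the RefSeq tables (GRCh38.p14), 80 windows in all, each of 300 bases from 250 bases before to 50 bases after the annotated start. The letters CCAAT were searched on both strands (ATTGG on the other strand), as were TATAAA and the octamer ATTTGCAT (ATGCAAAT on the other strand). No 2 of these motifs overlapped in a histone window. CCAAT was present in 83.6% of the 61 clustered core windows, in each of the 6 H1 windows and in 69.2% of the 13 variant windows, against 34.6% of all 35116 promoters. Within the clustered core it was in every window of H2A, H2B and H3 and in 3 of 13 windows of H4. TATAAA stood in 68.9% of clustered core windows and in 11.5% of all promoters. The octamer stood in 68.8% of H2A windows, 73.7% of H2B windows, 7.7% of H3 windows and 0 of 13 H4 windows, against 1.8% of all promoters. A match is a description of letters and not a shown binding site.

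The 150 bases before the start are printed for the genes that carry most of the values given further on: H2AC4, H2BC14 and H4C2, which were lower in control cells at 48 h, H4C4, the histone gene with the smallest p between RHOXF2 and control cells at 48 h, and H2AZ1, a variant. Capitals mark matches to the 3 motifs searched, on either strand. The stretches are chr6:26033619-26033768 (minus strand) for H2AC4, chr6:27814872-27815021 (plus strand) for H2BC14, chr6:26027284-26027433 (minus strand) for H4C2, chr6:26189113-26189262 (minus strand) for H4C4 and chr4:99950276-99950425 (minus strand) for H2AZ1.
H2AC4: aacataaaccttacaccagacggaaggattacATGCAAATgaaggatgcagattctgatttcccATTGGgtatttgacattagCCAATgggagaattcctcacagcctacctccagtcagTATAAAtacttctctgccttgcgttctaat
H2BC14: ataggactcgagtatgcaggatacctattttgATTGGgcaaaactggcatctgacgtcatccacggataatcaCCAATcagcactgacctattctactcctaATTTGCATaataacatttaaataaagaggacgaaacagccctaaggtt
H4C2: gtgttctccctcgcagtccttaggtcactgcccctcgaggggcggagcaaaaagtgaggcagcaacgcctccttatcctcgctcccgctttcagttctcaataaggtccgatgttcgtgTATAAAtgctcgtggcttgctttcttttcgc
H4C4: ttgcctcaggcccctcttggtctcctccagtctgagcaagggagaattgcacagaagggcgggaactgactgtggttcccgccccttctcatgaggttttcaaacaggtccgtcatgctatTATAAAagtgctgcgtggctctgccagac
H2AZ1: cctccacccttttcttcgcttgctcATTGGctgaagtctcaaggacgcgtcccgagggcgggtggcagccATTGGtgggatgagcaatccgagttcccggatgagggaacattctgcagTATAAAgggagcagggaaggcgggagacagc
The H2A and H2B promoters both carry the octamer and CCAAT, while in these stretches both H4 promoters carry TATAAA alone of the letters searched.

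All levels given here are log2 expression values as deposited, so differences between groups are log2 fold changes. Array medians over all clusters lay between 6.68 and 6.82, and the number of arrays limits the precision. RHOXF1 was 70.7-fold (48 h) and 60.2-fold (24 h) higher in RHOXF1 cells than in control cells, and the cluster shared by RHOXF2 and RHOXF2B 78.6-fold and 64.6-fold higher in RHOXF2 cells. RHOXF1 was also above control in the RHOXF2 cells, at 7.75, 7.03 and 9.12 at 48 h against 5.67, 6.198 and 6.51 in control cells (3.58-fold, limma adjusted p = 0.0462; 2.4-fold and 0.0998 without RHOXF2 replicate 3) and 2.21-fold at 24 h (limma adjusted p = 0.449). The RHOXF2 cluster in RHOXF1 cells was 0.882-fold (48 h) and 0.821-fold (24 h) of control, with limma adjusted p of 0.905 and 0.961. The filament genes NEFL, NEFM, VIM, KRT8 and KRT18, which HEK293 cells express, lay in the highest quartile of clusters and INA in the third. Of 8 genes of other cell types, PTPRC, ALB and PECAM1 lay in the lowest quartile, CD3E, CD14, HBB and MYH6 in the second and COL1A1 in the third. In the sample descriptions the 24 h arrays are numbered 1 to 9 and the 48 h arrays 16 to 24, so number and time cannot be told apart. On the first principal component of all named clusters, RHOXF2 replicate 3 at 48 h lay at 4.48. The other 48 h arrays lay between -26.25 (control replicate 3) and -9.36, and the 24 h arrays between 8.71 and 17.19. For the comparisons that use RHOXF2 replicate 3 at 48 h, the clustered core and variant medians, most counts and some leading genes are also given without it. Counts of clusters without overlap, the other leading genes and the supply and S phase genes are given only with it.

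Many of the clustered core genes moved together from array to array. Averaged over the 68 clusters, the level was 8.26, 8.47 and 8.35 in RHOXF1 cells at 48 h, 8.31, 8.43 and 8.70 in RHOXF2 cells at 48 h and 8.59, 8.21 and 8.02 in control cells at 48 h (replicates 1, 2 and 3). At 24 h it was 8.61, 8.56 and 8.55 in RHOXF1 cells, 8.62, 8.64 and 8.56 in RHOXF2 cells and 8.47, 8.46 and 8.62 in control cells. Control replicate 3 at 48 h was the lowest array and RHOXF2 replicate 3 at 48 h the highest, and the 3 groups overlapped at 48 h. Over all named clusters the same mean lay between 7.43 and 7.46 on every array. Quantile normalization holds that mean nearly constant, so it does not show how much smaller sets of clusters vary. The single first component of the 86 histone clusters, core, H1 and variant together, held 71.8% of their variance, against 34.1% for all named clusters. The sets differ in size and 4 histone clusters repeat others, so these shares are not directly comparable. The 6 H1 clusters averaged 8.64, 8.57 and 8.57 in RHOXF1 cells at 48 h, 8.51, 8.64 and 8.84 in RHOXF2 cells at 48 h and 8.70, 8.32 and 8.31 in control cells at 48 h. In this family too, control replicates 2 and 3 were the lowest arrays at 48 h. The 12 variant clusters stayed within 8.98 to 9.28 on all arrays, with control replicate 3 at 48 h again the lowest.

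**Figure D1:**
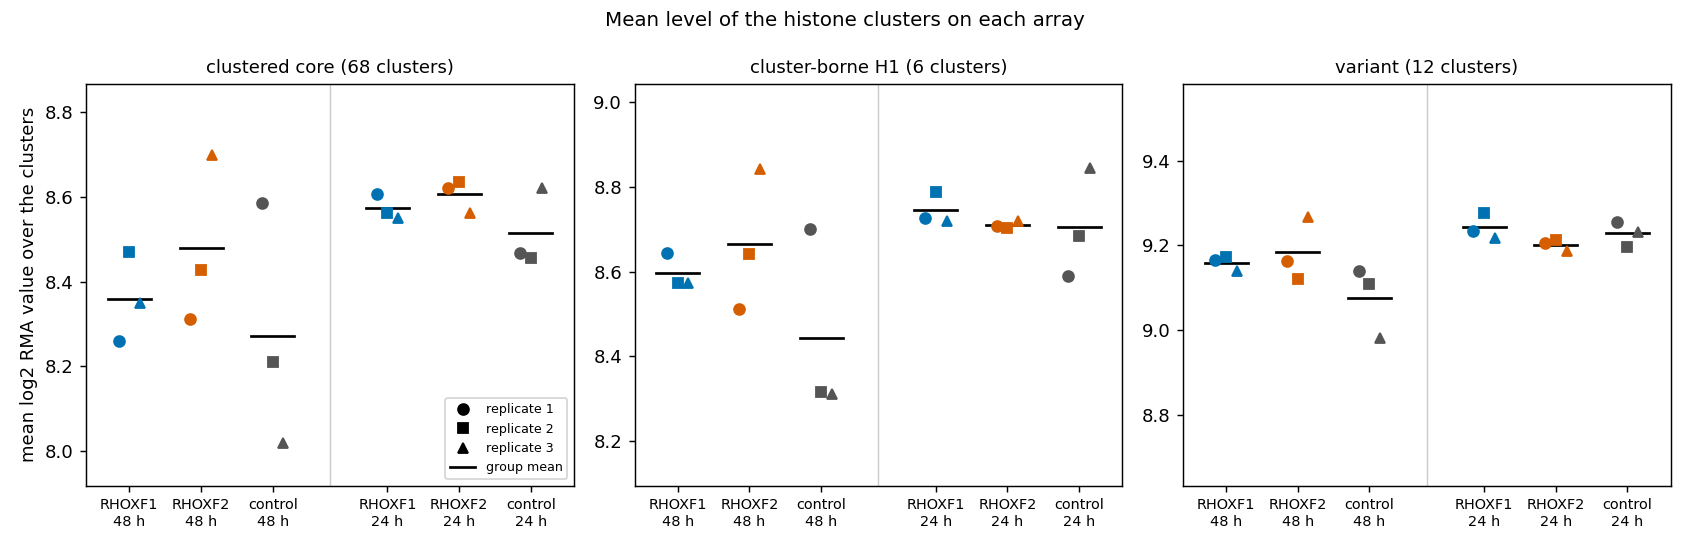
Mean log2 RMA value of the clustered core (68 clusters), cluster-borne H1 (6) and variant (12) histone clusters on each of the 18 arrays. Symbols are replicate arrays, lines are means of 3 arrays, and the y axes of the 3 panels span the same number of log2 units. Clustered core means at 48 h run from 8.02 (control replicate 3) to 8.70 (RHOXF2 replicate 3), while the 24 h arrays lie between 8.46 and 8.64.

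At 48 h, many single genes followed the same order. Control replicate 3 at 48 h was the lowest of the 18 arrays for 49 of the 86 histone clusters, and control replicate 2 at 48 h for a further 10. RHOXF2 replicate 3 at 48 h was the highest for 24. Within the control cells at 48 h, replicate 1 was the highest array in 54 of 68 clustered core clusters and replicate 3 the lowest in 51. Within the RHOXF2 cells at 48 h, replicate 3 was the highest in 59 of 68 and replicate 1 the lowest in 45. Among the 12 variants, control replicate 3 at 48 h was the lowest array for 4 and control replicate 2 for 3. At 24 h, replicates 1, 2 and 3 were highest in 30, 19 and 19 core clusters in RHOXF1 cells and in 26, 25 and 17 in RHOXF2 cells. In control cells at 24 h replicate 3 was highest in 41 of 68. These counts were not taken over all named clusters. On the first component of all named clusters control replicate 3 at 48 h also lay lowest (-26.25).

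The spread between replicates of the clustered core was accordingly wide at 48 h. Pooled over the 3 groups, the median within-group SD was 0.232 at 48 h against 0.136 at 24 h, and it was larger at 48 h in 54 of 68 clusters. All named clusters had a median SD of 0.125 at 48 h and 0.120 at 24 h, and the 12 variants 0.106 and 0.104. Of the clustered core, 36 clusters lay at or above percentile 90 of all named clusters by their SD at 48 h, as did 2 H1 clusters and 0 variants. The widest was H2AC15, an H2A gene chosen here after its values were seen, with a range of 3.28 over the 18 arrays. It read 8.76, 9.79 and 9.01 in RHOXF1 cells at 48 h, 8.89, 10.22 and 10.94 in RHOXF2 cells at 48 h and 10.36, 8.74 and 7.67 in control cells at 48 h. Its groups overlapped at 48 h, with the lowest value in control replicate 3 and the highest in RHOXF2 replicate 3. H2BC14 followed with a range of 2.83 and H3C1 with 2.22.

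**Figure D2:**
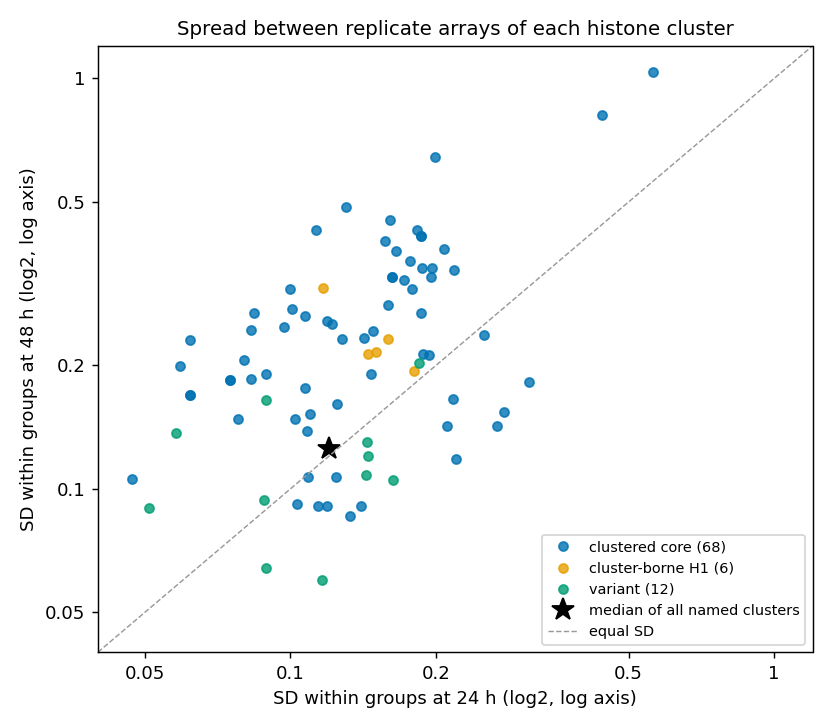
Within-group SD of each histone cluster at 24 h (x axis) and at 48 h (y axis), pooled over 3 groups of 3 arrays, both on log axes of log2 units. Colours mark the 3 classes, the star is the median of all named clusters (0.120 and 0.125), and most clustered core points (54 of 68) lie above the dashed line of equal SD.

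In control cells, most histone clusters had a lower mean at 48 h than at 24 h, and core, H1 and variant genes were among those that fell. Of the 86 clusters, 71 had a lower mean at 48 h, where 55% of all named clusters did. In limma's test with Benjamini-Hochberg adjustment over 21214 clusters, 14 histone clusters fell and 3 rose at an adjusted p of at most 0.05; of all clusters tested, 7.89% fell and 9.89% rose. As shares of the histone clusters this is 16.279% falling and 3.488% rising. Without adjustment, 29 were lower and 5 higher at a p under 0.05, against 17.2% and 16.4% of all clusters. In 18 every 48 h array lay below every 24 h array and in 2 above, against 15.7% and 14.7% of all clusters. The median difference was -0.197 in the clustered core, -0.216 in H1 and -0.198 in the variants, beside -0.029 over all named clusters. In bulk RNA, fewer cells making a transcript and less of it per cell cannot be told apart. Of the 55 clusters on chromosome 6, 10 were called lower and 0 higher, and of the 18 on chromosome 1, 1 lower and 3 higher. Those 3 are an identical pair of H4C15/H4C14 clusters and the pseudogene H2BC19P. By mean both chromosomes went the same way, with 46 of 55 and 14 of 18 clusters lower and medians of -0.181 and -0.26.

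H2AC4, an H2A gene, read 7.53, 6.94 and 6.67 in control cells at 48 h and 7.86, 8.36 and 8.34 at 24 h. Every 48 h array lay below every 24 h array, a difference of -1.14 ± 0.21 SE (n = 3 against 3, limma adjusted p = 0.00211). H2BC14, an H2B gene, read 9.50, 7.87 and 7.57 at 48 h and 9.46, 9.24 and 10.40 at 24 h. It fell by 1.39 ± 0.43 (limma adjusted p = 0.0351), although replicate 1 at 48 h lay among the 24 h arrays. H2AC12 read 7.21, 6.67 and 6.24 at 48 h and 7.45, 7.53 and 7.79 at 24 h, with no overlap. Its difference was -0.88 ± 0.23 (limma adjusted p = 0.0147).

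The histone H4 genes that fell were H4C2, H4C4 and H4C3. H4C2 read 10.75, 10.14 and 9.87 at 48 h and 10.76, 11.24 and 11.17 at 24 h, and the groups did not overlap. The difference was -0.80 ± 0.20 (limma adjusted p = 0.00984). H4C4 read 9.09, 8.80 and 8.56 at 48 h and 9.35, 9.26 and 9.51 at 24 h, without overlap and with a difference of -0.56 ± 0.15 (limma adjusted p = 0.0149). H4C3 read 12.65, 12.21 and 12.17 at 48 h and 12.63, 12.71 and 12.78 at 24 h, with overlap (-0.36 ± 0.11, limma adjusted p = 0.0373). The other core clusters that fell were H2AC21, the cluster shared by H3C4 and H2AC7, and H2BC8. H2AC21 read 11.41, 11.24 and 11.15 at 48 h and 11.82, 12.05 and 11.86 at 24 h (-0.64 ± 0.14, limma adjusted p = 0.00615). The H3C4/H2AC7 cluster read 11.35, 11.03 and 10.88 at 48 h and 11.44, 11.73 and 11.78 at 24 h (-0.56 ± 0.15, limma adjusted p = 0.0134). H2BC8 read 7.99, 7.49 and 7.08 at 48 h and 7.95, 8.01 and 8.09 at 24 h (-0.49 ± 0.16, limma adjusted p = 0.0416). Only H2BC8 of these 3 overlapped between the times, through replicate 1 at 48 h.

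Linker histones bind the DNA that enters and leaves the nucleosome. H1-1 read 7.97, 7.28 and 7.12 in control cells at 48 h and 8.05, 8.13 and 8.35 at 24 h, and fell by 0.72 ± 0.16 (limma adjusted p = 0.00672). H1-6, the linker histone known from testis, read 5.81, 5.46 and 5.63 at 48 h and 5.93, 6.25 and 6.25 at 24 h, and fell by 0.51 ± 0.14 (limma adjusted p = 0.0174). Neither gene overlapped between the times.

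Among the variants, both H2A.Z genes and H2AJ fell. H2AZ1 read 11.49, 11.30 and 11.18 at 48 h and 11.55, 11.68 and 11.66 at 24 h (-0.31 ± 0.09, limma adjusted p = 0.0276). H2AZ2 read 10.85, 10.61 and 10.66 at 48 h and 10.95, 10.89 and 11.04 at 24 h (-0.26 ± 0.08, limma adjusted p = 0.0282). H2AJ, a single-gene H2A variant, read 5.47, 5.32 and 5.14 at 48 h and 5.81, 5.59 and 5.56 at 24 h (-0.35 ± 0.11, limma adjusted p = 0.0351). The 3 genes did not overlap between the times, and their differences were smaller than those of most core genes that fell. The other 9 variants were not called. The H2AJ call was lost with repeated quantile normalization (limma adjusted p = 0.0954), cyclic loess (0.0811), all clusters tested (0.0626) and only the control groups fitted (0.0941). With only the control groups fitted, the calls of H2AZ1 (limma adjusted p = 0.103) and H2AZ2 (0.149) were lost too.

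**Figure D3:**
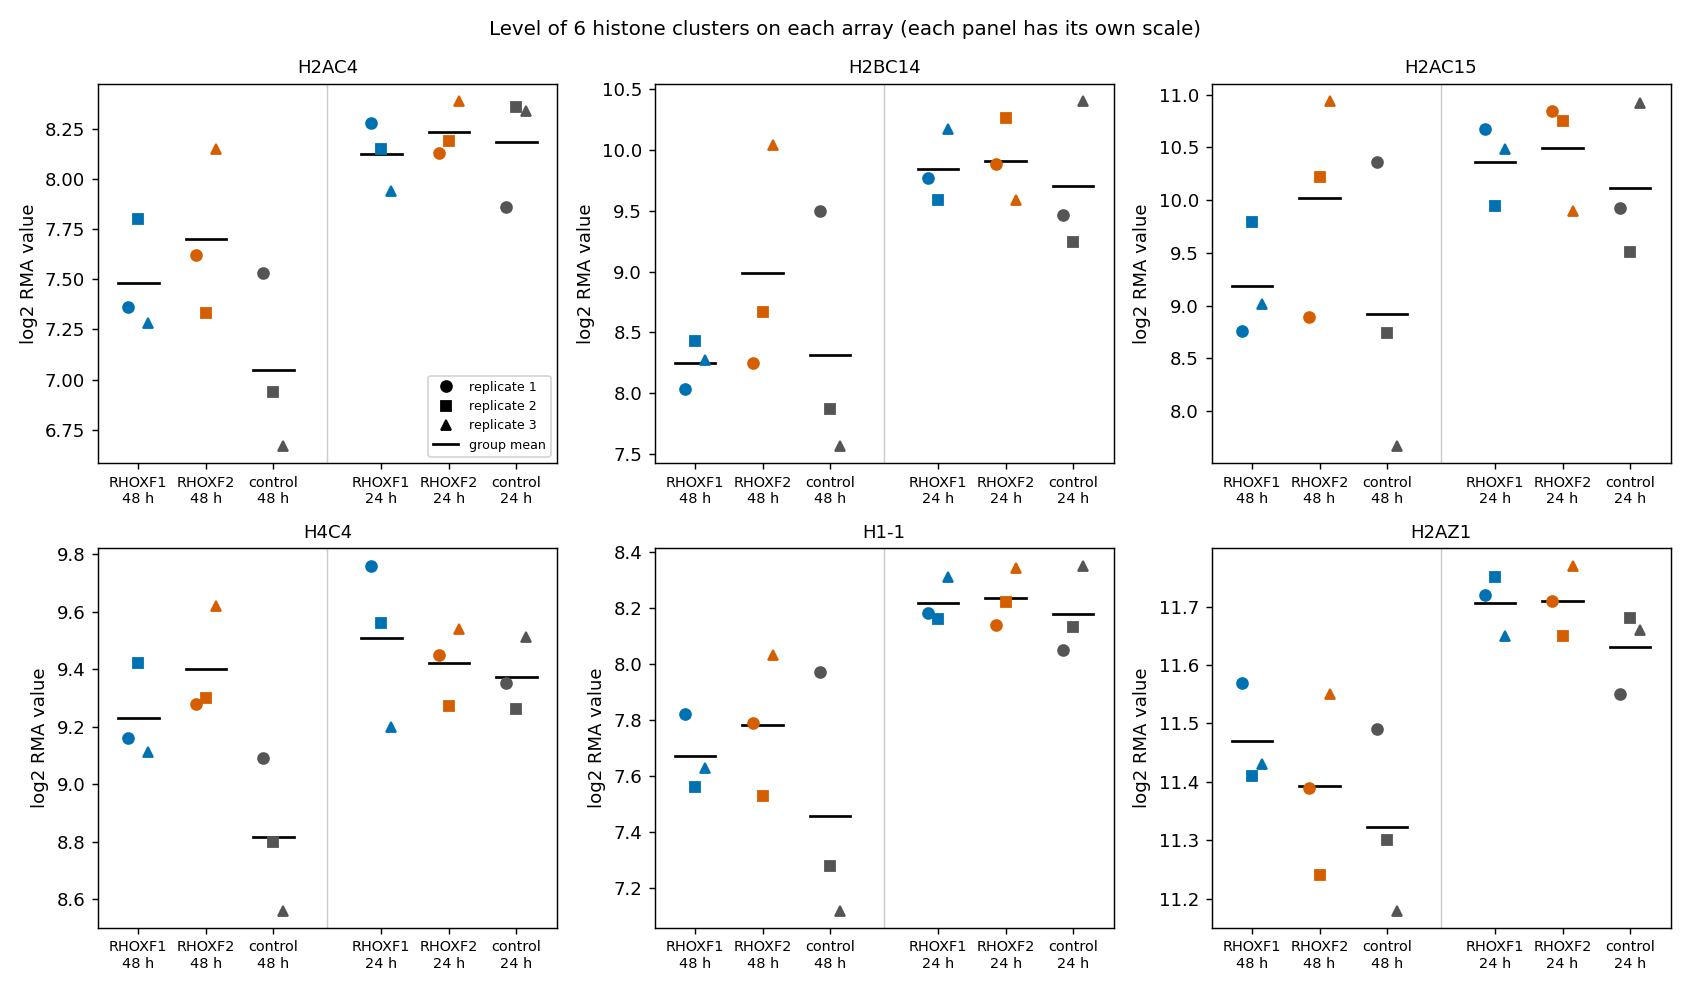
Log2 RMA values of H2AC4, H2BC14, H2AC15, H4C4, H1-1 and H2AZ1 on the 18 arrays, by group, with 48 h groups left of 24 h groups. Symbols are replicate arrays and lines are means of 3 arrays. In control cells at 48 h, replicates 2 and 3 lie below every control array at 24 h in all 6 panels, while replicate 1 lies among the 24 h arrays in H2BC14 and H2AC15.

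The calls in control cells rested partly on the fit and on single arrays. With only the control groups fitted, 10 of the 17 calls were retained; beside the 3 variants, H2BC19P, H2BC14, H4C3 and H2BC8 were lost, with limma adjusted p between 0.0679 and 0.116. Without control replicate 3 at 48 h, the array with the lowest histone levels, 5 of the 17 calls were retained, namely H2AC4 (-0.948), H1-1 (-0.555), H2AC21 (-0.585) and the pair of H4C15/H4C14 clusters (0.417), and MACROH2A1 (-0.300) was called in addition. The clustered core median was then -0.0958. Without control replicate 1 at 48 h, the array with the highest histone levels among the control arrays of that time, 16 of the 17 were retained and 39 histone clusters were called, 37 of them lower. Of all clusters, 7.99% were then called lower. Without control replicate 2 at 48 h, 10 of the 17 were retained. Without control replicate 1, 2 or 3 at 24 h, 13, 10 and 9 were retained. H2AC4, H1-1, H2AC21 and the H4C15/H4C14 clusters were called in each of the fits that left out 1 array.

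Not all clusters of related genes moved the same way. The 3 clusters that rose in control cells were H2BC19P, an H2B pseudogene by RefSeq, and a pair of identical clusters annotated to both H4C15 and H4C14. H4C15/H4C14 read 9.30, 9.21 and 9.66 at 48 h and 8.80, 8.87 and 8.84 at 24 h, with no overlap. The difference was 0.55 ± 0.10 (limma adjusted p = 0.00212). A second pair of clusters, annotated to H4C15 and to H4C14 alone and identical to each other, read 12.81, 11.84 and 11.76 at 48 h and 12.71, 12.49 and 12.90 at 24 h. It differed by -0.562 and was not called, so clusters with the same gene names had differences of opposite sign. H2BC19P read 7.00, 6.11 and 6.54 at 48 h and 5.82, 5.75 and 6.17 at 24 h (0.64 ± 0.18, limma adjusted p = 0.0194), with overlap. The cluster that lists H2BC19P with H2BC20P and H2BC21 differed by -0.146, and the cluster of H2BC21 alone by 0.372. H2AC15 alone differed by -1.197 and the cluster shared by H2BC15 and H2AC15 by 0.263. Of the 86 clusters, 16 list several genes and 4 are identical to another, so 82 are distinct. Histone genes of 1 family are near-identical in their coding sequence, and the array may not separate them.

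In the head-to-head arrangement, an H2A and an H2B gene start close together on opposite strands. RefSeq promoter windows overlapped in this way for 9 pairs in which each gene had a cluster of its own. In control cells at 48 h against 24 h, both genes of the pair had a lower mean in 7 of the 9. Of all 86 histone clusters 71 had a lower mean in this comparison, so the count is not a result particular to pairs. The differences were -0.405 for H2AC8 and -0.494 for H2BC8, -0.219 for H2AC6 and -0.307 for H2BC4, and -0.391 for H2AC13 and -0.131 for H2BC13. H2BC14 fell by 1.39, while its partner H2AC14 differed by -0.212. H2AC14 was the dimmest histone cluster, with a mean level of 3.15 against 9.17 for H2BC14. At so low a level a fall may not be visible, so no difference between these partners can be read from the values. The pairs that did not share a direction were H2AC20 with H2BC21 (-0.370 and 0.372) and H2AC11 with H2BC11 (0.095 and -0.078). The brighter cluster that lists H2BC21 with H2BC19P and H2BC20P (mean level 12.68 against 7.53) differed by -0.146, the same sign as H2AC20. The direction of H2BC21 therefore depends on the cluster taken.

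In RHOXF1 cells, 68 of the 86 histone clusters had a lower mean at 48 h than at 24 h, where 51.3% of all named clusters did. By limma, 1 histone cluster fell and 0 rose at an adjusted p of at most 0.05, beside 1.35% falling and 3.06% rising over all clusters. The count of 1 was 15 with only the RHOXF1 groups fitted (13 lower and 2 higher), 5 among clusters above the median level, 3 with repeated quantile normalization and 0 with all clusters tested. The shares of all clusters called in those fits are not given, so these counts are not a result particular to histones. Before adjustment, 18 were lower and 2 higher at a p under 0.05, against 8.93% and 11.2% of all clusters. In 31 every 48 h array lay below every 24 h array and in 2 above, against 14.7% and 15.1%. The median was -0.172 in the clustered core, -0.088 in H1 and -0.106 in the variants, beside -0.005 over all named clusters. The cluster that fell was H2BC14, at 8.04, 8.43 and 8.27 at 48 h and 9.77, 9.59 and 10.17 at 24 h, with every 48 h array below every 24 h array. The difference was -1.60 ± 0.43 SE (limma adjusted p = 0.044). This call was lost in each of the 6 fits that left out 1 of the RHOXF1 arrays, with differences between -1.72 and -1.44 and adjusted p between 0.0701 and 0.169. H2BC7 read 9.04, 9.25 and 9.18 at 48 h and 9.90, 9.96 and 9.82 at 24 h (-0.73 ± 0.21, limma adjusted p = 0.0576). H1-1 read 7.82, 7.56 and 7.63 at 48 h and 8.18, 8.16 and 8.31 at 24 h (-0.54 ± 0.16, limma adjusted p = 0.0645). Neither overlapped between the times, yet neither passed. H1-6 read 6.07, 5.69 and 5.73 at 48 h and 5.99, 6.34 and 5.93 at 24 h, with overlap (-0.26 ± 0.14, limma adjusted p = 0.31). The variants with the smallest p were H2AZ2, H2AZ1 and MACROH2A1, a histone with a large macro domain. H2AZ2 read 10.86, 10.84 and 10.78 at 48 h and 11.08, 11.02 and 11.02 at 24 h (-0.21 ± 0.08, limma adjusted p = 0.12). H2AZ1 read 11.57, 11.41 and 11.43 at 48 h and 11.72, 11.75 and 11.65 at 24 h (-0.24 ± 0.09, limma adjusted p = 0.145). MACROH2A1 read 10.43, 10.46 and 10.41 at 48 h and 10.55, 10.66 and 10.60 at 24 h (-0.17 ± 0.08, limma adjusted p = 0.269). None of the 3 passed, and none overlapped between the times.

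In RHOXF2 cells, 61 of the 86 had a lower mean at 48 h than at 24 h, against 46.2% of all named clusters. By limma, 2 histone clusters rose and 0 fell, beside 0.985% rising and 0.259% falling over all clusters. At an unadjusted p under 0.05, 4 were higher and 12 lower, against 10.3% and 6.36% of all clusters. In 10 every 48 h array lay below every 24 h array and in 5 above, against 8.11% and 12% of all clusters. Both calls were the identical H4C15/H4C14 clusters, at 9.20, 9.44 and 9.16 at 48 h and 8.75, 8.76 and 8.87 at 24 h (0.47 ± 0.10, limma adjusted p = 0.0351), without overlap. The same clusters read 9.23, 9.30 and 9.16 at 48 h and 8.90, 8.82 and 8.97 at 24 h in RHOXF1 cells (0.34 ± 0.10, limma adjusted p = 0.0648). The brighter clusters of H4C15 and H4C14 alone had the opposite sign and were not called. They differed by -0.0805 in RHOXF2 cells and -0.3636 in RHOXF1 cells, so a rise of these genes cannot be read from the calls. In RHOXF2 cells the calls were lost without any 1 of the arrays except replicate 3 at 48 h, and also with only the RHOXF2 groups fitted or all clusters tested. H2AZ1 read 11.39, 11.24 and 11.55 at 48 h and 11.71, 11.65 and 11.77 at 24 h (-0.32 ± 0.09, limma adjusted p = 0.086). H2BC7 read 9.20, 9.18 and 9.67 at 48 h and 10.18, 9.97 and 9.84 at 24 h (-0.64 ± 0.21, limma adjusted p = 0.133). H1-1 read 7.79, 7.53 and 8.03 at 48 h and 8.14, 8.22 and 8.34 at 24 h (-0.45 ± 0.16, limma adjusted p = 0.17). In these 3 genes replicate 3 was the highest 48 h array and still lay below every 24 h array. H2AZ2 read 10.78, 10.78 and 10.93 at 48 h and 11, 11.03 and 11.06 at 24 h, without overlap (-0.20 ± 0.08, limma adjusted p = 0.179). H2AC1 read 4.39, 4.32 and 4.59 at 48 h and 4.58, 4.93 and 4.79 at 24 h, with overlap (-0.33 ± 0.10, limma adjusted p = 0.094). Of the linker histones, H1-5, H1-7, H1-10, H1-2 and H1-8 had higher means at 48 h, while H1-1, H1-3, H1-4 and H1-6 had lower means. None of them was called. H1-10 differed by 0.22 ± 0.11, without overlap (limma adjusted p = 0.319). H1-5 read 4.78, 5.13 and 5.15 at 48 h and 4.86, 4.79 and 4.55 at 24 h, with overlap (0.29 ± 0.13, limma adjusted p = 0.283). H1-7, known from spermatids, read 7.11, 6.99 and 6.99 at 48 h and 6.88, 6.91 and 6.8 at 24 h, without overlap (0.17 ± 0.08, limma adjusted p = 0.292). Without RHOXF2 replicate 3 at 48 h, 6 histone clusters were called. The pair of H4C15/H4C14 clusters rose (0.524), and H2AC21 (-0.579), H2AC12 (-0.815), H2AC1 (-0.409) and H2AZ1 (-0.396) fell. Of all clusters, 2.26% then rose and 1.51% fell. The clustered core median was -0.2035 without this array and -0.091 with it, and -0.0043 without RHOXF2 replicate 1 at 48 h. The H1 median was -0.029 and the variant median -0.014, beside 0.014 over all named clusters, and -0.0953 and -0.0591 without replicate 3 at 48 h. Without it 72 of 86 had a lower mean at 48 h, and at an unadjusted p under 0.05 there were 19 lower and 3 higher, against 8.66% and 10.4% of all clusters.

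**Figure D4:**
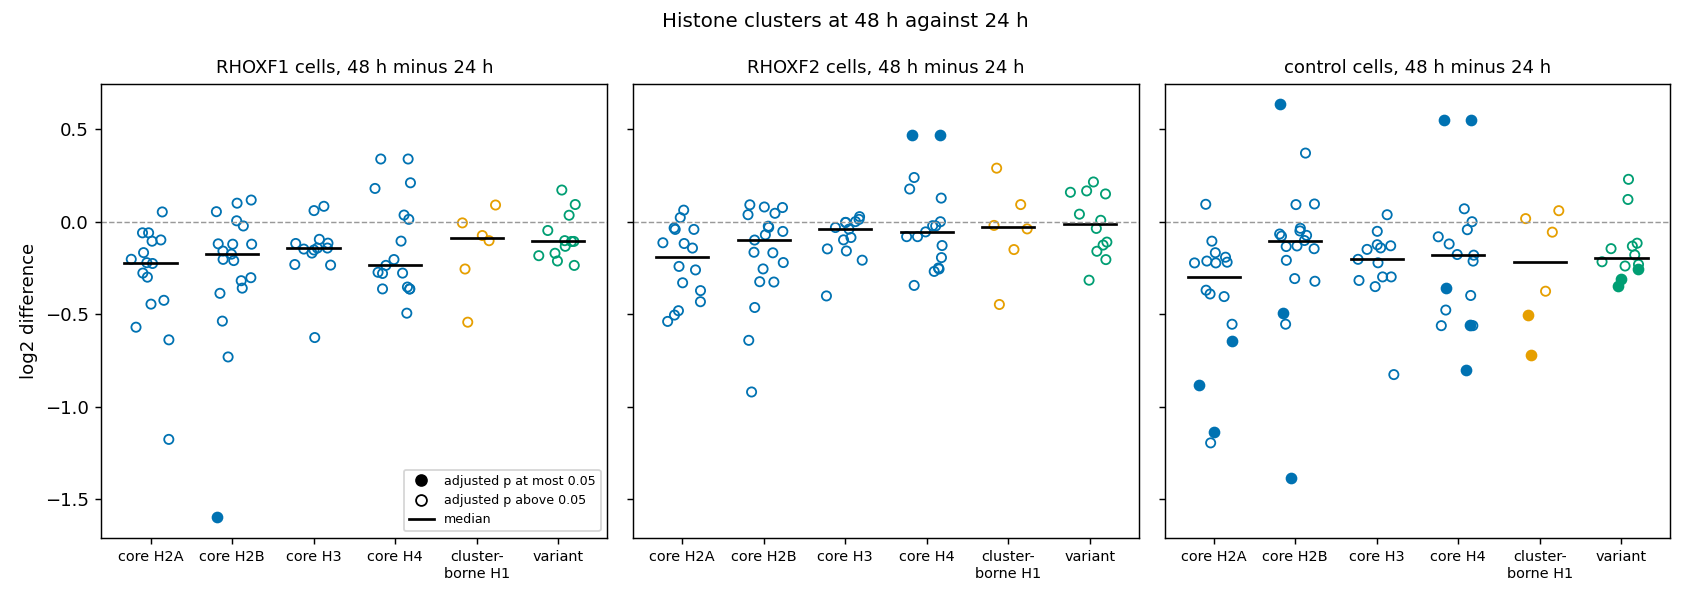
Log2 difference at 48 h minus 24 h of the histone clusters in RHOXF1, RHOXF2 and control cells, by family. Core clusters that list genes of several families are not drawn, among them H3C4/H2AC7, which was called in control cells. Filled points have an adjusted p of at most 0.05, open points do not, and lines are medians. Most points lie below 0 in each panel. Of all 86 clusters, drawn or not, 68, 61 and 71 had a difference below 0, and 1, 2 and 17 were called. With only the groups of each comparison fitted the calls would be 15, 0 and 10, for which no share over all clusters is given.

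No histone cluster passed the test between RHOXF2 and control cells at 48 h. Most were nonetheless higher in RHOXF2 cells on average: 74 of 86, where 53.9% of all named clusters were. By limma 0 of 86 histone clusters were called, beside 0.0848% of all clusters higher and 0.00943% lower. At an unadjusted p under 0.05, 16 histone clusters were higher and 1 was lower, against 6.41% and 5.75% of all clusters. The test pools the spread of both times, so p may be too small for core clusters that spread more at 48 h, such as H2AC4 (SD 0.384 at 48 h against 0.208 at 24 h). In 7 of 86 every RHOXF2 array lay above every control array, against 6.59% of all clusters, and in 0 below, against 5.24%. The median difference was 0.182 in the clustered core, 0.226 in H1 and 0.110 in the variants, beside 0.013 over all named clusters. By family the core medians were 0.283 for H2A, 0.118 for H2B, 0.152 for H3 and 0.193 for H4.

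H4C4 had the smallest p, with 9.28, 9.30 and 9.62 in RHOXF2 cells at 48 h, against 9.09, 8.80 and 8.56 in control cells at 48 h. The groups did not overlap, and the difference was 0.58 ± 0.15 SE (limma adjusted p = 0.187). H2AC4 read 7.62, 7.33 and 8.15 in RHOXF2 cells, against 7.53, 6.94 and 6.67 in control cells, with overlap (0.65 ± 0.21, limma adjusted p = 0.252). H4C2 read 10.54, 10.71 and 11.18 in RHOXF2 cells, against 10.75, 10.14 and 9.87 in control cells (0.56 ± 0.20, limma adjusted p = 0.27). In both, RHOXF2 replicate 3 was the highest array and control replicate 3 the lowest. Among linker histones, H1-6 read 5.87, 5.99 and 6.26 in RHOXF2 cells, against 5.81, 5.46 and 5.63 in control cells (0.40 ± 0.14, limma adjusted p = 0.264). H1-3 read 8.42, 8.57 and 8.85 in RHOXF2 cells, against 8.52, 8.29 and 8.08 in control cells (0.32 ± 0.14, limma adjusted p = 0.354). H1-6 did not overlap between the groups and H1-3 did. Among the variants, H3-4, an H3 gene known from testis, read 6.89, 7.00 and 7.21 in RHOXF2 cells, against 6.98, 6.89 and 6.42 in control cells (0.27 ± 0.14, limma adjusted p = 0.455). MACROH2A2 read 9.68, 9.59 and 9.74 in RHOXF2 cells, against 9.55, 9.52 and 9.44 in control cells (0.16 ± 0.09, limma adjusted p = 0.459). H2AZ2 read 10.78, 10.78 and 10.93 in RHOXF2 cells, against 10.85, 10.61 and 10.66 in control cells (0.12 ± 0.08, limma adjusted p = 0.545). Of these 3 variants MACROH2A2 alone did not overlap between the groups.

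The size of this difference moved with single arrays. Without RHOXF2 replicate 3 the clustered core median was 0.1023, with 46 of 68 clusters higher, the H1 median 0.1227 and the variant median 0.0513. In all, 62 of 86 histone clusters were then higher by mean, where 51.2% of all named clusters were. An unadjusted p under 0.05 was then reached by 1 higher and 1 lower histone cluster in place of 16 and 1, against 2.5% and 2.48% of all clusters. H4C4 then differed by 0.47 ± 0.16 (limma adjusted p = 0.889), H2AC4 by 0.43 ± 0.21, H4C2 by 0.37 ± 0.20, H1-6 by 0.29 ± 0.15 and H1-3 by 0.20 ± 0.14. Without control replicate 3 it was 0.0661, with 49 higher. Without control replicate 1 it was 0.3205, with 60 higher, and 7 histone clusters were then called, all higher in RHOXF2 cells: H2BC4 (0.860), H2AC8 (0.708), H2BC7 (0.673), H4C4 (0.717), H1-1 (0.587) and the identical clusters of H4C15 and H4C14 alone (0.918). Of all clusters, 0.255% were then called higher. Their adjusted p lay between 0.0305 and 0.0475.

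Between RHOXF1 and control cells at 48 h, again 0 of 86 histone clusters passed by limma, beside 0.00471% of all clusters higher and 0.00471% lower. At an unadjusted p under 0.05, 2 were higher and 1 was lower, against 4.1% and 3.12% of all clusters. In 4 every RHOXF1 array lay above every control array and in 1 below, against 7.17% and 5.39%. By mean, 66 of 86 were higher in RHOXF1 cells, where 52.6% of all named clusters were, with medians of 0.088 in the clustered core, 0.202 in H1 and 0.070 in the variants. All 12 variants had a higher mean, by 0.013 to 0.162, and 1 of them did not overlap with control. H4C4 read 9.16, 9.42 and 9.11 in RHOXF1 cells, against 9.09, 8.80 and 8.56 in control cells (0.42 ± 0.15 SE, limma adjusted p = 0.584). The cluster of H2BC21 alone went the other way, with 7.31, 7.47 and 7.38 in RHOXF1 cells, against 8.0, 7.79 and 7.65 in control cells (-0.43 ± 0.16, limma adjusted p = 0.594). Neither H4C4 nor this cluster overlapped between the groups. The brighter cluster that lists H2BC21 with H2BC19P and H2BC20P differed by 0.0746 (limma adjusted p = 0.924), so the clusters of this gene had opposite signs. H1-3 read 8.43, 8.83 and 8.52 in RHOXF1 cells, against 8.52, 8.29 and 8.08 in control cells (0.30 ± 0.14, limma adjusted p = 0.687). H2AC4 read 7.36, 7.80 and 7.28 in RHOXF1 cells, against 7.53, 6.94 and 6.67 in control cells (0.43 ± 0.21, limma adjusted p = 0.693). Both overlapped with control. MACROH2A2 read 9.72, 9.64 and 9.64 in RHOXF1 cells, against 9.55, 9.52 and 9.44 in control cells (0.16 ± 0.09, limma adjusted p = 0.729), without overlap. H1-5 read 5.24, 4.89 and 5.24 in RHOXF1 cells, against 5.05, 4.65 and 5.03 in control cells (0.21 ± 0.13, limma adjusted p = 0.763). H2AZ1 read 11.57, 11.41 and 11.43 in RHOXF1 cells, against 11.49, 11.30 and 11.18 in control cells (0.15 ± 0.09, limma adjusted p = 0.758). H2AZ2, at 10.86, 10.84 and 10.78 in RHOXF1 cells against 10.85, 10.61 and 10.66 in control cells, differed by 0.12 ± 0.08 (limma adjusted p = 0.764). These 3 genes overlapped between the groups. Without control replicate 3 the clustered core median was -0.0223 and 26 of 68 were higher, so its direction rested on that array. Without control replicate 1 it was 0.2304, and without RHOXF1 replicate 2 it was 0.0289. Both comparisons at 48 h use the same control arrays.

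**Figure D5:**
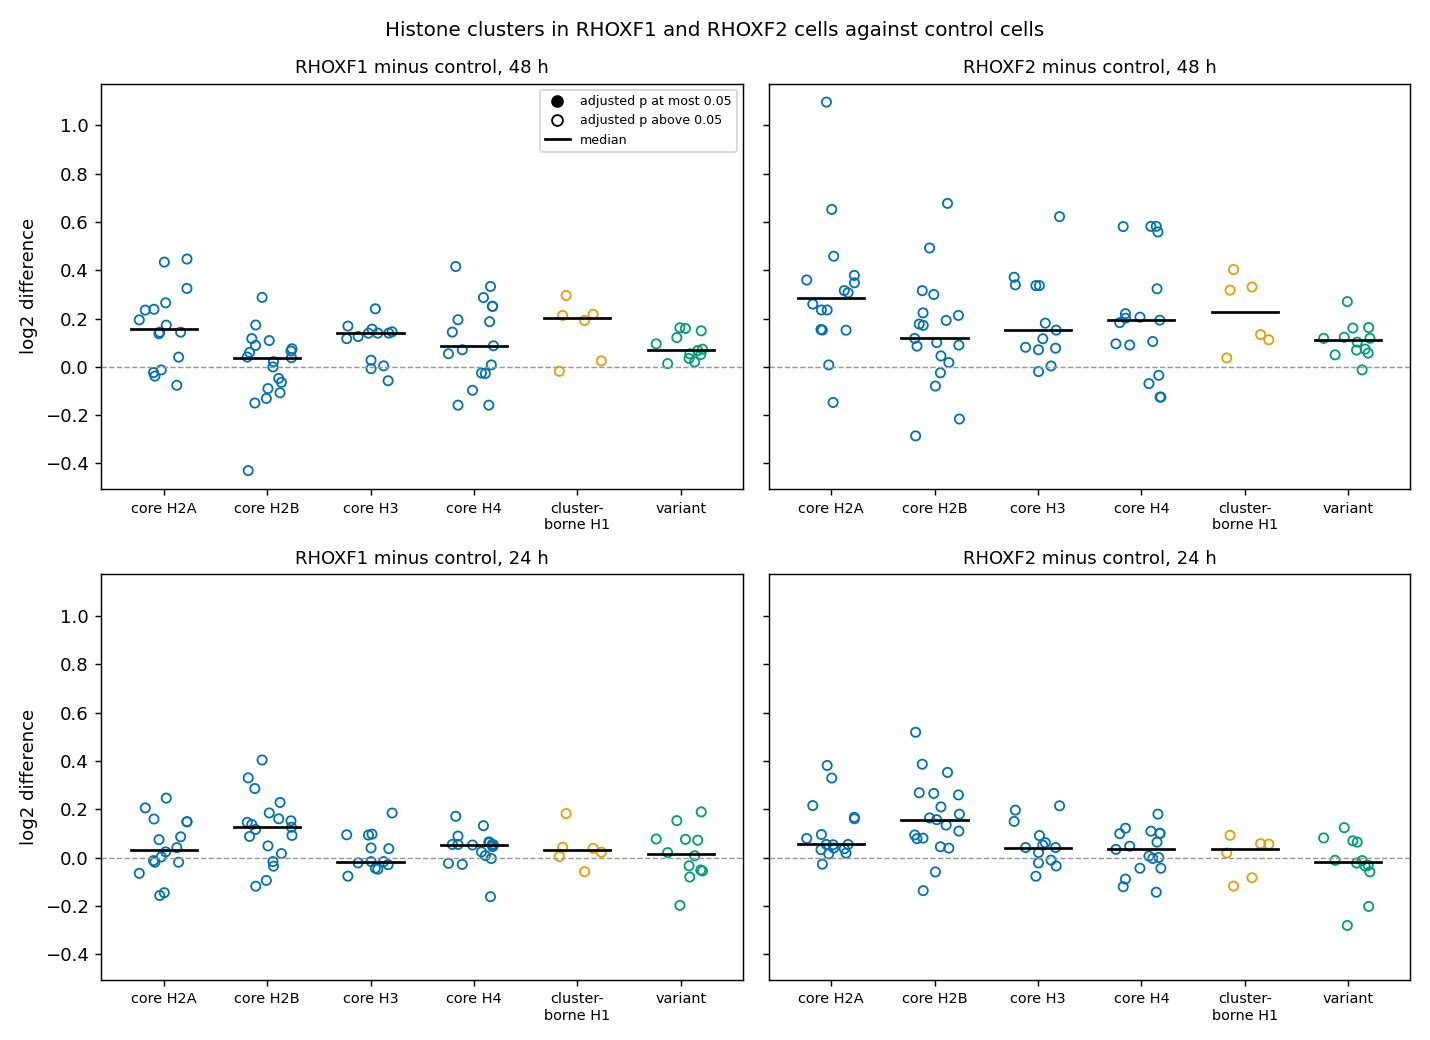
Log2 difference of the histone clusters between RHOXF1 or RHOXF2 cells and control cells at 48 h (top) and 24 h (bottom), by family. Lines are medians, and core clusters that list genes of several families are not drawn. All points are open because no histone cluster had an adjusted p of at most 0.05. At 48 h, 74 of all 86 clusters, drawn or not, had a difference above 0 for RHOXF2 and 66 of 86 for RHOXF1.

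At 24 h no histone cluster passed against control. By limma 0 of 86 histone clusters were called in RHOXF2 cells, beside 0.00943% of all clusters higher and 0% lower, and 0 of 86 in RHOXF1 cells, beside 0.00471% higher and 0% lower. At an unadjusted p under 0.05, 1 was higher and 1 lower in RHOXF2 cells, against 1.72% and 6.27% of all clusters, and 3 were higher and 1 lower in RHOXF1 cells, against 1.62% and 3.14%. No overlap was seen in 9 clusters above and 1 below control for RHOXF2, against 3.89% and 7.18% of all clusters, and in 5 above and 2 below for RHOXF1, against 4.6% and 4.93%. By mean, 62 of 86 were higher in RHOXF2 cells and 58 of 86 in RHOXF1 cells, where 48.8% and 50.1% of all named clusters were. The clustered core median was 0.071 in RHOXF2 cells, with 54 of 68 higher, and 0.053 in RHOXF1 cells, with 46 of 68 higher. These lay nearer to 0 than the 48 h medians over all arrays (0.182 and 0.088), but not nearer than those without control replicate 3 at 48 h (0.0661 and -0.0223) or, for RHOXF1, without its replicate 2 (0.0289). H2BC19P read 6.49, 6.44 and 6.37 in RHOXF2 cells and 6.29, 6.13 and 6.53 in RHOXF1 cells, against 5.82, 5.75 and 6.17 in control cells. The differences were 0.52 ± 0.18 SE in RHOXF2 cells (limma adjusted p = 0.477) and 0.40 ± 0.18 in RHOXF1 cells (limma adjusted p = 0.961). H1-7 read 6.88, 6.91 and 6.8 in RHOXF2 cells and 6.84, 7.01 and 7.00 in RHOXF1 cells, against 7.24, 7.17 and 7.03 in control cells. It lay below every control array in both groups, with a difference of -0.28 ± 0.08 in RHOXF2 cells (limma adjusted p = 0.42) and of -0.20 ± 0.08 in RHOXF1 cells (limma adjusted p = 0.961). H2BC12 read 11.10, 11.01 and 10.89 in RHOXF1 cells, against 10.98, 10.50 and 10.53 in control cells (0.33 ± 0.14, limma adjusted p = 0.961). MACROH2A2, one of the macroH2A genes, read 9.57, 9.64 and 9.51 in RHOXF1 cells, against 9.45, 9.22 and 9.48 in control cells, without overlap (0.19 ± 0.09, limma adjusted p = 0.961). In RHOXF2 cells it read 9.55, 9.36 and 9.61, with overlap (0.12 ± 0.09, limma adjusted p = 0.779). The other genes with the smallest p in their class for RHOXF2 were H2BC5, H2AC17, H1-8, H1-5 and H1-3. H2BC5 read 6.74, 6.79 and 6.75 in RHOXF2 cells, against 6.54, 6.57 and 6.68 in control cells, without overlap (0.16 ± 0.08, limma adjusted p = 0.64). H2AC17 read 6.16, 6.18 and 6.09 in RHOXF2 cells, against 5.79, 5.45 and 6.21 in control cells, with overlap (0.33 ± 0.17, limma adjusted p = 0.672). H1-8, a linker histone known from oocytes, read 7.06, 7.28 and 6.97 in RHOXF2 cells, against 7.27, 7.44 and 7.22 in control cells (-0.20 ± 0.11, limma adjusted p = 0.689). H1-5 (-0.12 ± 0.13) and H1-3 (0.09 ± 0.14) lay nearer to control still: H1-5 read 4.86, 4.79 and 4.55 in RHOXF2 cells against 4.72, 4.81 and 5.02 in control cells, and H1-3 read 8.62, 8.74 and 8.93 in RHOXF2 cells against 8.47, 8.74 and 8.81 in control cells. All 3 linker histones overlapped with control. For RHOXF1 these were H4C13, H1-10, H1-5 and H1-4, all with overlap. H4C13 read 4.97, 4.81 and 4.71 in RHOXF1 cells, against 4.70, 4.48 and 4.80 in control cells (0.17 ± 0.10, limma adjusted p = 0.961). H1-10, a replication-independent linker histone, read 9.83, 9.53 and 9.62 in RHOXF1 cells, against 9.70, 9.34 and 9.48 in control cells (0.15 ± 0.11, limma adjusted p = 0.961). H1-5 read 4.97, 4.97 and 5.16 in RHOXF1 cells, against 4.72, 4.81 and 5.02 in control cells (0.18 ± 0.13, limma adjusted p = 0.961). H1-4 read 13.64, 13.63 and 13.61 in RHOXF1 cells, against 13.62, 13.53 and 13.60 in control cells (0.04 ± 0.07, limma adjusted p = 0.98). The 2 comparisons share the control arrays, so common directions are not independent.

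The vectors were also set against each other. At 48 h, RHOXF2 minus RHOXF1 gave 0 calls among the 86 by limma, beside 0.0471% of all clusters higher and 0.00471% lower, and an unadjusted p under 0.05 was reached by 0 of them, against 1.98% and 1.55% of all clusters. By mean 64 of 86 were higher, where 51% of all named clusters were. No overlap was seen in 3 above and 0 below, against 4.46% and 4.78%. The median was 0.102 in the clustered core and 0.002 in the variants. Without RHOXF2 replicate 3 it was 0.0127 in the clustered core and -0.026 in the variants, 41 of 86 were higher, where 47.4% of all named clusters were, and an unadjusted p under 0.05 was reached by 0 higher and 1 lower, against 1.06% and 1.28%. H2BC14 read 8.25, 8.67 and 10.04 in RHOXF2 cells, against 8.04, 8.43 and 8.27 in RHOXF1 cells (0.74 ± 0.43 SE, limma adjusted p = 0.998), with RHOXF2 replicate 3 above the other 5 arrays, which overlapped. Without that array H2BC14 differed by 0.215 ± 0.41, H4C8 by 0.19 ± 0.16 and H3-4 by 0.16 ± 0.15. H4C8 read 7.27, 7.74 and 7.75 in RHOXF2 cells, against 7.22, 7.54 and 7.19 in RHOXF1 cells (0.27 ± 0.15). H3-4 read 6.89, 7.00 and 7.21 in RHOXF2 cells, against 6.72, 6.79 and 6.85 in RHOXF1 cells, without overlap (0.25 ± 0.14). H2BC17 read 6.54, 6.82 and 7.22 in RHOXF2 cells, against 6.23, 6.7 and 6.7 in RHOXF1 cells (0.32 ± 0.20). H1-6 read 5.87, 5.99 and 6.26 in RHOXF2 cells, against 6.07, 5.69 and 5.73 in RHOXF1 cells (0.21 ± 0.14). H1-2, MACROH2A1 and H2AZ1 lay closer. H1-2 read 10.73, 11.02 and 11.14 in RHOXF2 cells, against 10.78, 10.90 and 10.75 in RHOXF1 cells (0.15 ± 0.14). MACROH2A1 read 10.43, 10.46 and 10.66 in RHOXF2 cells, against 10.43, 10.46 and 10.41 in RHOXF1 cells (0.08 ± 0.08). H2AZ1 read 11.39, 11.24 and 11.55 in RHOXF2 cells, against 11.57, 11.41 and 11.43 in RHOXF1 cells (-0.08 ± 0.09). The limma adjusted p was 0.998 for each of these, and all but H3-4 overlapped. At 24 h 0 were called, beside 0.00943% higher and 0.00471% lower, while an unadjusted p under 0.05 was reached by 1 lower cluster, against 0.396% higher and 1.31% lower over all clusters. No overlap was seen in 1 above and 1 below, against 2.36% and 3.84%, and 56 of 86 were higher by mean, where 46.6% of all named clusters were. The lower cluster was H1-5, at 4.86, 4.79 and 4.55 in RHOXF2 cells, against 4.97, 4.97 and 5.16 in RHOXF1 cells (-0.30 ± 0.13, limma adjusted p = 1). The others with the smallest p in their class, all with overlap and a limma adjusted p of 1, were led by H3C11, at 6.23, 6.12 and 5.99 in RHOXF2 cells against 6.38, 6.14 and 6.35 in RHOXF1 cells (-0.17 ± 0.10). H2AC1 read 4.58, 4.93 and 4.79 in RHOXF2 cells, against 4.74, 4.59 and 4.48 in RHOXF1 cells (0.16 ± 0.10), and H2BC3 read 4.93, 5.21 and 5.01 in RHOXF2 cells, against 4.76, 4.85 and 5.10 in RHOXF1 cells (0.15 ± 0.13). H1-8 read 7.06, 7.28 and 6.97 in RHOXF2 cells, against 7.04, 7.43 and 7.31 in RHOXF1 cells (-0.15 ± 0.11). H1-10 read 9.66, 9.53 and 9.53 in RHOXF2 cells, against 9.83, 9.53 and 9.62 in RHOXF1 cells (-0.09 ± 0.11). H1-7, with the values given above, differed by -0.08 ± 0.08. H1-3 read 8.62, 8.74 and 8.93 in RHOXF2 cells, against 8.65, 8.82 and 8.61 in RHOXF1 cells (0.07 ± 0.14).

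The test of whether a difference from control itself changed between the times called 0 of 86 histone clusters for either vector. Over all clusters 0.0141% were called higher for RHOXF2 and 0% for RHOXF1, with 0% lower for both. At an unadjusted p under 0.05, 4 were higher and 2 lower for RHOXF2, against 5.44% and 3.32% of all clusters, and 1 higher and 2 lower for RHOXF1, against 3.08% and 1.62%. The smallest p belonged to H1-7 for RHOXF2, whose difference from control was 0.38 ± 0.11 SE higher at 48 h than at 24 h (limma adjusted p = 0.508). H4C4 followed for RHOXF2 at 0.53 ± 0.21, then H4C7, another H4 gene, at 0.34 ± 0.13 and H1-6 at 0.49 ± 0.19 (limma adjusted p = 0.557 for the 3). H2BC3 was at -0.42 ± 0.18, and H1-8, H2AJ and H1-5 at 0.27 ± 0.15, 0.22 ± 0.15 and 0.23 ± 0.19, with limma adjusted p between 0.56 and 0.718. The RHOXF2 medians were 0.114 in the clustered core, 0.228 in H1 and 0.105 in the variants. Without RHOXF2 replicate 3 at 48 h they were 0.0182, 0.1285 and 0.0655, and 2 clusters were higher and 0 lower at an unadjusted p under 0.05, against 4.01% and 1.79% of all clusters. H1-7 was then at 0.40 ± 0.12, H4C4 at 0.42 ± 0.21, H4C7 at 0.33 ± 0.14 and H1-6 at 0.38 ± 0.19 (limma adjusted p = 0.836 for each). For RHOXF1 the smallest p belonged to H2BC12, at -0.48 ± 0.20 (limma adjusted p = 0.95). H2BC19P followed among core genes at -0.54 ± 0.25 and H4C7 at 0.25 ± 0.13. Of H1 and variant genes, H1-7 was at 0.25 ± 0.11, H2AJ at 0.24 ± 0.15, H1-3 at 0.27 ± 0.19, H1-6 at 0.25 ± 0.19 and H1-8 at 0.12 ± 0.15, with limma adjusted p of 0.95 or 0.968.

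Genes that act on histone mRNA, chaperone histones or mark S phase were read beside the histones. Of 30 measured supply genes, 6 fell and 1 rose in control cells at 48 h against 24 h, with a median of -0.0402, beside 7.89% falling, 9.89% rising and a median of -0.029 over all named clusters. Those that fell were ERI1, an exonuclease of histone mRNA decay (-0.25 ± 0.09), CSTF2, a cleavage factor (-0.43 ± 0.11), the histone chaperones ASF1A (-0.36 ± 0.11), ASF1B (-0.39 ± 0.12) and HIRA (-0.37 ± 0.11), and SUPT16H of the FACT complex (-0.24 ± 0.07), with limma adjusted p between 0.0112 and 0.0472. LSM11, of the U7 particle that processes histone mRNA ends, rose by 0.46 ± 0.09 (limma adjusted p = 0.00379). In RHOXF1 cells at 48 h against 24 h, CSTF2 (-0.46) and ASF1A (-0.41) fell and LSM11 rose (0.38), beside 1.35% falling and 3.06% rising over all clusters. In RHOXF2 cells 0 of the 30 passed by limma, with 7 at an unadjusted p under 0.05, against 6.36% lower and 10.3% higher over all clusters.

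Of 21 measured S phase genes, 3 fell and 2 rose in control cells, against the same 7.89% and 9.89%, with a median of -0.0087. CLSPN, a replication checkpoint adaptor, fell by 0.89 ± 0.11 (limma adjusted p = 0.000344), and the cyclin genes CCNE2 and CCNE1 by 0.42 ± 0.10 and 0.27 ± 0.09. CDT1, a replication licensing factor, rose by 0.82 ± 0.18 (limma adjusted p = 0.00453), and PRIM1, a primase subunit, by 0.34 ± 0.09. CLSPN also fell in RHOXF1 cells (-0.82) and RHOXF2 cells (-0.47), the 1 S phase gene called in each, where 1.35% and 0.259% of all clusters fell. Against control none of either list passed by limma at 48 h or 24 h. At 48 h, 5 of 30 supply and 3 of 21 S phase genes had an unadjusted p under 0.05 for RHOXF2, where 6.41% of all clusters were higher and 5.75% lower at that p. For RHOXF1 they were 1 and 2, against 4.1% and 3.12%. At 24 h they were 0 and 1 for RHOXF2, against 1.72% and 6.27%, and 1 and 0 for RHOXF1, against 1.62% and 3.14%. The supply genes with the smallest p for RHOXF2 at 48 h were ASF1B (0.44 ± 0.12), UBN1, a subunit of the HIRA complex (0.33 ± 0.10), and CSTF2 (0.29 ± 0.11), with limma adjusted p of 0.204, 0.239 and 0.293. The S phase genes were CLSPN (0.49 ± 0.11), CCNE2 (0.35 ± 0.10) and CCNE1 (0.20 ± 0.09), with limma adjusted p of 0.133, 0.213 and 0.383. For RHOXF1 at 48 h the supply genes were ASF1B (0.35 ± 0.12), HIRA (0.23 ± 0.11) and HJURP, a chaperone of the centromeric H3 variant (-0.20 ± 0.11), and the S phase genes CCNE2 (0.22 ± 0.10), CCNE1 (0.21 ± 0.09) and PRIM1 (-0.15 ± 0.09), with limma adjusted p between 0.537 and 0.755. At 24 h the supply genes for RHOXF2 were UBN1 (0.18 ± 0.10), ZNF473 (0.16 ± 0.09) and SRCAP, a remodeller that deposits H2A.Z (0.12 ± 0.08), and the S phase genes CDT1 (0.41 ± 0.18), CDC6 (0.24 ± 0.15) and CCNE2 (0.14 ± 0.10), with limma adjusted p between 0.565 and 0.783. For RHOXF1 at 24 h they were SRCAP (0.18 ± 0.08), UBN1 (0.19 ± 0.10) and CSTF2 (0.17 ± 0.11), then CDT1 (0.34 ± 0.18), MCM4 (0.12 ± 0.08) and MCM2 (0.15 ± 0.12), each with a limma adjusted p of 0.961.

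The mean over the 21 S phase genes was 10.288 in RHOXF1, 10.336 in RHOXF2 and 10.24 in control cells at 48 h, and 10.345 in RHOXF1, 10.362 in RHOXF2 and 10.288 in control cells at 24 h. The clustered core mean was 8.36 in RHOXF1, 8.48 in RHOXF2 and 8.272 in control cells at 48 h, and 8.574 in RHOXF1, 8.607 in RHOXF2 and 8.515 in control cells at 24 h. Over the groups both means were lowest in control cells at 48 h and highest in RHOXF2 cells at 24 h. Within the control cells at 48 h, the S phase mean was 10.21, 10.26 and 10.25 in replicates 1, 2 and 3, where the clustered core mean was 8.59, 8.21 and 8.02. The part of the S phase genes in the histone values was not tested.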

How the data were processed

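Each of the 18 samples was hybridised to 1 array. The deposited values are log2 expression values from RMA, which the authors ran in Affymetrix Expression Console 3.1, per the labels. RMA corrects background, equalises the arrays by quantiles and gives 1 value per transcript cluster. The series text names an exon array, the sample labels the Gene 1.0 ST array. The genome build is not given in the sources used here. Quantile normalization sets all arrays to 1 distribution, so differences are relative to the other clusters.

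Symbols came from the platform annotation supplied with the series; all 83 histone symbols matched RefSeq. The test was limma 3.58.1 under R 4.3.3, applied to every named cluster (lmFit, eBayes, 1 mean per group, 18 arrays, 12 residual and 6.5 prior degrees of freedom, two-sided), with Benjamini-Hochberg adjustment at 0.05 over the 21214 named clusters, in 11 comparisons. SE is limma's moderated one. It pools 1 variance per cluster over the 24 h and 48 h groups. For comparisons at 48 h, SE and p may therefore be too small in clusters that spread more at 48 h, as 54 of 68 core clusters did. No filter on dim clusters was applied; 24 of 86 histone clusters, H2AJ and H1-6 among them, had means below the median of all clusters. No array was left out. On simulated data of the RHOXF2 comparison at 48 h (21214 clusters, 50 changed at each size), 14% of differences of 0.25, 76% of 0.5, 92% of 1 and 100% of 2 were recovered, with 7 false calls. The clustered core had a wider spread at 48 h than all named clusters (median SD 0.232 against 0.125), so these rates may be too high for it.

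Genes were named by a rule: every histone cluster that passed, and per comparison the 3 clustered core, 2 H1 and 3 variant clusters with the smallest p; of the supply and S phase lists, those that passed and the 3 with the smallest p against control. A list gene with several clusters was taken by its brightest. The members and lists were chosen with earlier results of these data known. Alternatives were another normalization, other sets of clusters or arrays, a replicate block and an intensity trend.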

Additional observations from a re-analysis of the deposited data

How the results depend on the processing

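Under the 9 alternatives, 285 counts and medians moved by under 1.5 times (counts) or under 1 SD between replicates (medians), and 12 moved by more. With 1 array left out these were 210 and 24. That SD is wide for the clustered core at 48 h: without 1 array its median ran from -0.0223 to 0.2304 for RHOXF1 and from 0.0661 to 0.3205 for RHOXF2 against control, from 0.0127 to 0.1676 for RHOXF2 against RHOXF1, and from -0.2035 to -0.0043 in RHOXF2 and -0.3225 to -0.0958 in control cells for 48 h against 24 h. The change of the difference from control ran from 0.0073 to 0.2339 for RHOXF2 and from -0.0769 to 0.1644 for RHOXF1. In control cells at 48 h against 24 h, fitting only the groups compared gave 10 histone calls in place of 17, and leaving out 1 array gave 6 to 39. In RHOXF1 cells the count of 1 became 3 with repeated quantile normalization, 5 among clusters above the median level, 15 with only the groups compared, 0 with all clusters tested, and 0 to 1 without 1 array. In RHOXF2 cells the count of 2 became 1 with identical clusters counted once and 0 with only the groups compared, all clusters tested or single-symbol clusters only, and 0 to 6 without 1 array. For RHOXF2 against control at 48 h, it was 0 to 7 without 1 array. Shares over all clusters are given for only some of these fits, so the changed counts are not a result particular to histones. The variant median in RHOXF1 against control cells at 24 h became -0.0293 when quantile normalization was repeated and -0.024 under cyclic loess, and ran from 0.0004 to 0.0525 without 1 array. In RHOXF1 cells at 48 h against 24 h it became -0.0698 with repeated quantile normalization and ran from -0.1332 to -0.0676. It ran from -0.0389 to 0.0142 for RHOXF2 against control and from -0.0565 to -0.0066 for RHOXF2 against RHOXF1, both at 24 h. Differences near 0 changed sign for H1-4 in RHOXF1 against control cells at 24 h with cyclic loess (-0.0011), for H1-3 at 24 h in RHOXF2 against control (-0.0075 without control replicate 1, up to 0.1646 without another array) and against RHOXF1 cells (-0.0144 without RHOXF2 replicate 3, up to 0.1425), and for H2AZ1 in RHOXF2 against RHOXF1 cells at 48 h (0.0018 without RHOXF2 replicate 2, down to -0.1553). Residuals of same-numbered arrays correlated over 0.1 in 8 pairs of 9 at 24 h but in 2 of 9 at 48 h, so the numbers were not taken as pairs. With the replicate block, 18 histone clusters were called in control cells and all 142 results compared kept their direction and their side of the threshold. The causes were not tested. With 3 arrays a group, differences of 0.25 were recovered in 14% of simulated cases over all named clusters, which spread less at 48 h than the clustered core.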
